A study of Mus musculus with 15 samples.

Results

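Mouse cells that carried only the fusion RUNX1-ETO were compared with mouse cells that carried only the mutant receptor CSF3R-T618I, gene by gene. The comparison used 6 of the 15 mRNA libraries of the series, 3 labelled RUNX1-ETO_ONLY and 3 labelled CSF3R_ONLY, chosen by those labels. A further 3 libraries labelled EMPTY, which received control vectors, served as the shared baseline for sorting genes by how either allele moved them. All groups came from a cell line labelled HoxB, with Blood given as its cell type, so the line's own background was common to all of them. The remaining 6 libraries carried both alleles, RUNX1-ETO_FIRST with the fusion introduced before the receptor and CSF3R_FIRST with the reverse order. They are compared near the end only, but all 15 libraries entered the filter, the scaling and the fit behind every test. The labels give no promoter, clone number or culture condition, and nothing in them shows that replicates were grown apart. A p-value therefore measures the spread between libraries within the groups of that fit only, which could be technical.

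RUNX1 is a DNA-binding transcription factor needed for blood formation and for myeloid differentiation. In RUNX1-ETO its DNA-binding part is joined to most of ETO (RUNX1T1), a protein that recruits repressor complexes, and the fusion is known from acute myeloid leukaemia with the t(8;21) translocation. CSF3R is the receptor for granulocyte colony-stimulating factor, which drives neutrophil production through JAK kinases and STAT factors, and T618I is a membrane-proximal change that lets the receptor signal without its ligand. The series title names the order in which these lesions arise in acute myeloid leukaemia as the question of the study. The comparison of the single alleles asks how far each one alone moved the cells, and in which direction.

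Expression is given in CPM, the gene's counts scaled to a common library size with TMM factors. A gene was called when its adjusted p was under 0.05 in edgeR's quasi-likelihood test, with Benjamini-Hochberg adjustment over 13123 genes. All adjusted p-values below come from that test, and SE is the standard error of a log2 fold change. Total counts were 17834284 to 18178292 in RUNX1-ETO_ONLY, 17482995 to 17653679 in CSF3R_ONLY and 17007437 to 17391045 in EMPTY libraries. On the first principal component, which held 51.5% of the variance of the 9 libraries, RUNX1-ETO_ONLY lay between -68.5 and -66.3, CSF3R_ONLY between 60.0 and 60.6, and EMPTY between 6.11 and 8.64. On the second, with 34.4%, RUNX1-ETO_ONLY lay between 22.6 and 26.4 and CSF3R_ONLY between 35.0 and 35.2, whereas EMPTY lay between -65.8 and -57.1. In replicate 3 of RUNX1-ETO_ONLY and replicate 3 of EMPTY, long transcripts were low relative to the other libraries of the group (Spearman correlation of each gene's deviation with transcript length, -0.50 and -0.59 over 12799 genes). The blood-cell markers Ptprc, Coro1a and Laptm5 summed to 1499 to 1585 CPM in RUNX1-ETO_ONLY, 1980 to 2006 CPM in CSF3R_ONLY and 1472 to 1488 CPM in EMPTY. The T cell gene Cd3e had no counts in any of the 9 libraries. Of 4 stromal markers, Col1a2 and Dcn had no counts and Col1a1 had at most 1.27 CPM, whereas Pdgfrb, a growth factor receptor, had 84.2 to 92.8 CPM in RUNX1-ETO_ONLY, 29.6 to 32.7 CPM in CSF3R_ONLY and 20.5 to 30.6 CPM in EMPTY.

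The levels of Runx1 and Runx1t1 matched the labels, whereas Csf3r separated the groups little. Runx1 (chromosome 16, 92601466 to 92826149 on mm10, minus strand) had 569, 559 and 513 CPM in RUNX1-ETO_ONLY, 132, 125 and 126 CPM in CSF3R_ONLY, and 92.9, 96.4 and 81.5 CPM in EMPTY. The groups did not overlap, and the difference between the alleles was 2.10 (log2, SE 0.099, adjusted p = 7.91e-11). Runx1t1, the mouse gene for ETO, had 439, 513 and 392 CPM in RUNX1-ETO_ONLY and no counts in CSF3R_ONLY or EMPTY, at least 2577-fold higher against a floor of 3 counts per CSF3R_ONLY library, which covers counting error only. Csf3r (chromosome 4, 126024550 to 126044440, plus strand) had 508, 536 and 530.4 CPM in RUNX1-ETO_ONLY, 617, 626 and 622 CPM in CSF3R_ONLY, and 422, 465 and 373 CPM in EMPTY. Its level was highest in CSF3R_ONLY and lowest in EMPTY, with no overlap, but the difference between the alleles was small (log2 -0.25, SE 0.084, adjusted p = 0.026). Against EMPTY it was higher with the fusion too (log2 0.32, adjusted p = 0.00647). Without any one of replicates 1 and 3 of RUNX1-ETO_ONLY or of replicates 1, 2 and 3 of CSF3R_ONLY the adjusted p of Csf3r was 0.0517 to 0.0897. The species of the introduced sequences is not given in the labels, so reads of introduced and resident copies cannot be told apart.

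The alleles left the cells far apart. Genes called in the direct comparison numbered 6043 (46.0% of those tested), 2926 higher in RUNX1-ETO_ONLY (22.3%) and 3117 lower (23.8%). With a change of at least 2-fold as well, 1012 were higher (7.71%) and 1339 were lower (10.2%). The median log2 difference over all genes was 0.01. With library sizes alone in place of TMM factors that median was 0.15, with 4139 genes higher and 2460 lower. Of the genes called, 48.4% were higher with TMM factors, 47.9% with DESeq2's size factors and 62.7% with library sizes alone, and values below are relative to TMM scaling. Without replicate 3 of RUNX1-ETO_ONLY and of EMPTY, a setting chosen after the data were seen, 3268 genes were higher and 3606 were lower.

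The 12 largest rises with the fusion included genes that are best known from neurons. Camk2a, a calcium/calmodulin-dependent kinase of neurons, had 90.5, 83.8 and 77.1 CPM in RUNX1-ETO_ONLY, 2.74, 2.08 and 1.73 CPM in CSF3R_ONLY, and 6.33, 6.56 and 4.20 CPM in EMPTY. Every fusion library lay above every other library, and every receptor library lay below every EMPTY library (direct log2 5.26, SE 0.18, adjusted p = 2.79e-12). Mdga1, a membrane-anchored adhesion protein of neurons, had 509, 576 and 506 CPM in RUNX1-ETO_ONLY, 19.6, 19.1 and 14.4 CPM in CSF3R_ONLY, and 32.7, 34.7 and 33.0 CPM in EMPTY. That order of the groups was the same as for Camk2a, again without overlap (log2 4.91, SE 0.12, adjusted p = 6.33e-14). The postsynaptic scaffold gene Shank3 averaged 73.8 ± 10.4 CPM in RUNX1-ETO_ONLY, 3.65 ± 0.569 CPM in CSF3R_ONLY and 4.79 ± 0.575 CPM in EMPTY (SD, n = 3 each). Ptprf, a receptor tyrosine phosphatase, Pear1, a platelet aggregation receptor, Krt80, a keratin, and Afap1l1, an actin-associated protein, were 12.1-fold to 26.6-fold higher. Rgs1, which shortens signalling by G protein-coupled receptors, averaged 53.3 ± 4.66 CPM in RUNX1-ETO_ONLY, 3.46 ± 0.570 CPM in CSF3R_ONLY and 3.85 ± 0.412 CPM in EMPTY (SD, n = 3 each).

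Bnip5 was the exception among the 12 largest rises, since it was lower than EMPTY with either allele. It had 15.7, 18.3 and 13.9 CPM in RUNX1-ETO_ONLY, 0.292, 0.695 and 0.634 CPM in CSF3R_ONLY, and 51.8, 66.8 and 44.3 CPM in EMPTY. The receptor libraries were lowest and the EMPTY libraries highest, without overlap. The difference between the alleles, 29.2-fold (log2 4.87, SE 0.29, adjusted p = 1.29e-09), thus lay below the baseline.

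The 12 largest falls with the fusion included genes of granulocytes and of defence against infection. Ifitm1, an interferon-induced membrane protein that restricts virus entry, had 12.9, 11.3 and 16.6 CPM in RUNX1-ETO_ONLY, 3398, 3571 and 3408 CPM in CSF3R_ONLY, and 261, 264 and 489 CPM in EMPTY. The groups did not overlap and stood 254-fold apart between the alleles (log2 -7.99, SE 0.27, adjusted p = 2.59e-12). Its neighbour Ifitm3 (chromosome 7, 141009586 to 141010770) moved the same way and was 44.6-fold lower, but reads shared within the Ifitm family could be split between them. Serpine2, an inhibitor of thrombin and urokinase, was 178-fold lower, and Il1r2, a decoy receptor for interleukin-1, was 81.1-fold lower. Cybb, the catalytic subunit of the phagocyte NADPH oxidase, had 3.42, 3.03 and 3.35 CPM in RUNX1-ETO_ONLY, 102, 96.0 and 98.9 CPM in CSF3R_ONLY, and 7.88, 5.33 and 4.50 CPM in EMPTY. Receptor libraries were high, and fusion libraries were low without reaching 0 (log2 -4.92, SE 0.16, adjusted p = 1.61e-12). Prg2, the major basic protein of eosinophil granules, was 33.0-fold lower, Fam20c, a kinase of secreted proteins, 25.5-fold lower, and Olfml2b, an extracellular matrix protein, 27.4-fold lower.

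Genes were then sorted by their calls against EMPTY. RUNX1-ETO_ONLY differed from EMPTY in 2724 genes that were higher (20.8%) and 2393 that were lower (18.2%), and CSF3R_ONLY in 2617 that were higher (19.9%) and 1730 that were lower (13.2%). Both comparisons use the same 3 EMPTY libraries, so a high or low EMPTY library moves both in 1 direction, which favours shared over opposed calls. Genes called with both alleles in the same direction are termed shared, and those called in opposite directions are termed opposed. Genes called with 1 allele, not with the other, and called in the direct comparison in the same direction are termed specific to that allele. The shared and opposed genes ranked below were taken only where the libraries of neither allele overlapped with EMPTY. Those ranked as specific had no overlap of that allele with EMPTY or the other allele. Such separation was thus set by the choice and is not a result.

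Shared genes numbered 1071 higher (8.16% of those tested) and 583 lower (4.44%). Opposed genes numbered 315 that were higher with the fusion and lower with the receptor (2.40%), and 512 that were lower with the fusion and higher with the receptor (3.90%). Specific to the fusion were 1051 genes that were higher (8.01%) and 979 that were lower (7.46%), and specific to the receptor were 835 that were higher (6.36%) and 606 that were lower (4.62%). A further 606 genes were called against EMPTY with the fusion alone (4.62%) and 425 with the receptor alone (3.24%), without a matching call in the direct comparison, and 919 were called in the direct comparison only (7.00%). None of these 3 comparisons called the other 5221 genes (39.8%). A minimum of 2-fold in each comparison a class needs left 443 shared higher (3.38%) and 169 shared lower genes (1.29%). It left 71 opposed genes that were higher with the fusion (0.541%) and 143 that were lower (1.09%). Specific to the fusion were then 466 higher (3.55%) and 426 lower genes (3.25%), and to the receptor 399 higher (3.04%) and 124 lower genes (0.945%).

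**Figure D1:**
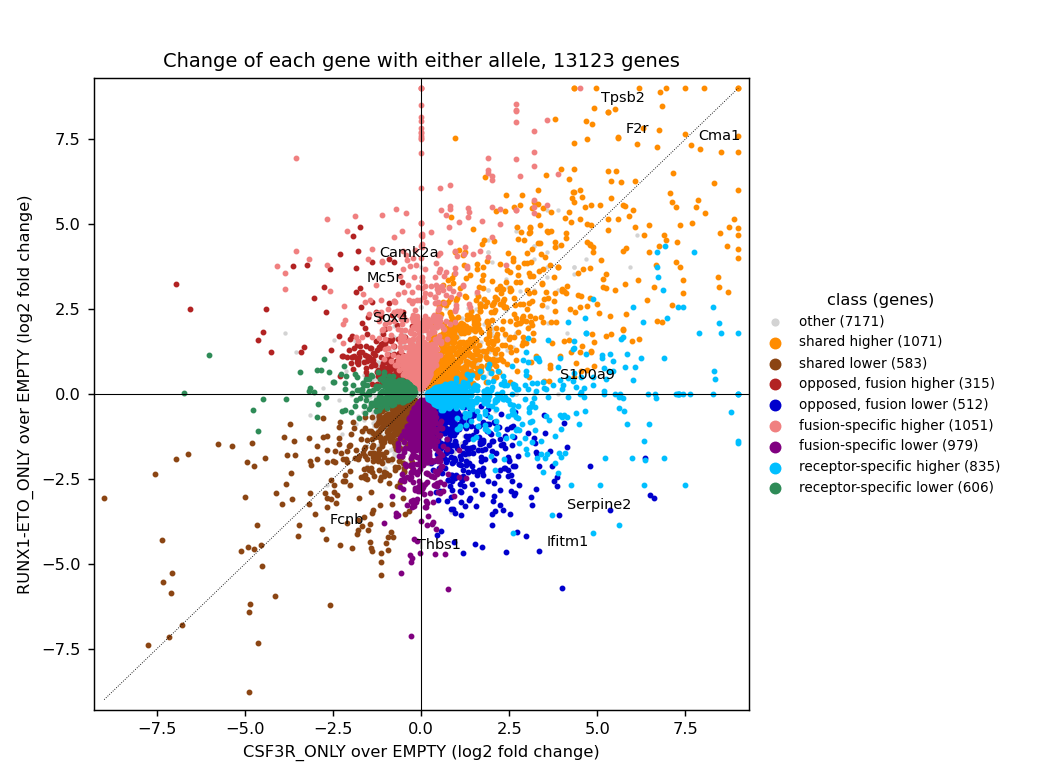
Each point is 1 of 13123 genes, with its log2 fold change in CSF3R_ONLY over EMPTY on the x axis and in RUNX1-ETO_ONLY over EMPTY on the y axis, coloured by class, and with values beyond 9 drawn at 9. Opposed genes such as Sox4 and Serpine2 lie in the upper left and lower right quadrants, and Cma1 lies near the dotted line of equal change.

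Opposed genes that were higher with the fusion included regulators of immature and growing cells. Sox4, a transcription factor of progenitors, had 171, 156 and 168 CPM in RUNX1-ETO_ONLY, 13.1, 15.2 and 14.4 CPM in CSF3R_ONLY, and 38.7, 41.9 and 47.5 CPM in EMPTY. EMPTY libraries lay between the alleles without touching either (log2 1.95 with the fusion, SE 0.095, adjusted p = 1.73e-10, and -1.59 with the receptor, SE 0.10, adjusted p = 4.92e-09). Hmga2, a chromatin-bending protein of fetal and growing tissue, had 164, 152 and 149 CPM in RUNX1-ETO_ONLY, 18.9, 14.5 and 14.1 CPM in CSF3R_ONLY, and 44.2, 46.1 and 46.9 CPM in EMPTY. It too was intermediate in EMPTY, 3.39-fold higher with the fusion and 2.89-fold lower with the receptor. The melanocortin receptor gene Mc5r averaged 89.5 ± 4.07 CPM in RUNX1-ETO_ONLY, 3.05 ± 0.408 CPM in CSF3R_ONLY and 10.3 ± 0.325 CPM in EMPTY (SD, n = 3 each). Igfbp4, which binds insulin-like growth factors, averaged 597 ± 8.46 CPM in RUNX1-ETO_ONLY, 101 ± 2.55 CPM in CSF3R_ONLY and 259.8 ± 9.80 CPM in EMPTY (SD, n = 3 each). Plcb4, a phospholipase, and Nol4l, a nucleolar protein, were 2.35-fold and 2.63-fold higher with the fusion, and 3.33-fold and 2.28-fold lower with the receptor.

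Opposed genes that were lower with the fusion had larger median changes, log2 -0.93 with the fusion and 0.79 with the receptor, against 0.60 and -0.64 for those that were higher with it. Serpine2 (chromosome 1, 79794197 to 79861180, minus strand) had 1.02, 1.44 and 0.786 CPM in RUNX1-ETO_ONLY, 193, 188 and 201 CPM in CSF3R_ONLY, and 12.8, 12.3 and 13.2 CPM in EMPTY. The 3 groups stood apart, with log2 -3.55 with the fusion (SE 0.14, adjusted p = 1.48e-11) and 3.92 with the receptor (SE 0.10, adjusted p = 2.83e-13). Il1r2 had 2.65, 1.85 and 2.52 CPM in RUNX1-ETO_ONLY, 196, 192 and 182 CPM in CSF3R_ONLY, and 12.3, 12.9 and 16.7 CPM in EMPTY. Again no library crossed between groups. Lgals3, the galectin of macrophages and activated myeloid cells, had 3.88, 3.39 and 4.87 CPM in RUNX1-ETO_ONLY, 174, 176 and 171 CPM in CSF3R_ONLY, and 24.4, 24.7 and 40.0 CPM in EMPTY. The high EMPTY value was that of replicate 3, the library low in long transcripts, as it was for Ifitm1. Ngp, the neutrophilic granule protein, averaged 66.1 ± 5.74 CPM in RUNX1-ETO_ONLY, 1707 ± 28.3 CPM in CSF3R_ONLY and 309.6 ± 60.7 CPM in EMPTY (SD, n = 3 each). Rtn4rl2, a receptor of the Nogo receptor family, and Rflnb, a filamin-binding protein, were 5.38-fold and 4.49-fold lower with the fusion, and 5.51-fold and 5.08-fold higher with the receptor.

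**Figure D2:**
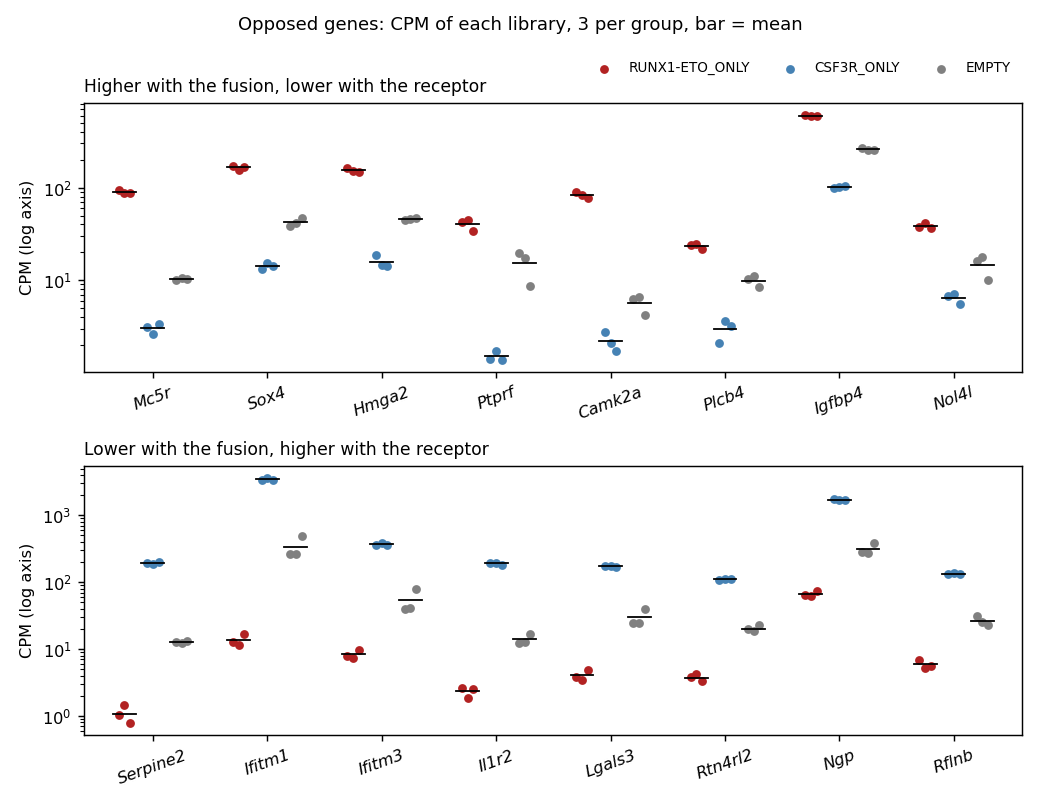
CPM on a log axis in each library of RUNX1-ETO_ONLY (red), CSF3R_ONLY (blue) and EMPTY (grey), 3 libraries per group, with a bar at the mean, for 8 opposed genes that were higher (top) and 8 that were lower (bottom) with the fusion. The EMPTY libraries lie between the libraries of the alleles in each of the 16 genes, which the rule for choosing them required. Mc5r, for example, has means of 89.5, 3.05 and 10.3 CPM.

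The 250 bases before the start of Sox4, Serpine2, Cma1 and Fcnb are shown. These genes moved with either allele, and RUNX1, PU.1, C/EBP and AP-1 factors bind DNA motifs near such starts. Each was the first ranked gene of its opposed or shared class among those with a RefSeq entry considered. Genes of 1 chromosome were left out of this choice, and Mc5r, which ranked above Sox4, is not shown. Sequences are from RefSeq on GRCm38.p6, 5′ to 3′ on the gene's strand, at chr13:28953700-28953949 for Sox4, chr1:79858666-79858915 for Serpine2, chr14:55944676-55944925 for Cma1 and chr2:28084879-28085128 for Fcnb, all on the minus strand. Capitals mark matches to the RUNX motif TGTGGT, the STAT motif TTCNNNGAA, the GATA motif AGATAA, the C/EBP motif TTGCNNAA, the AP-1 motif TGANTCA or the PU.1 motif GAGGAAG on either strand.
Sox4 promoter: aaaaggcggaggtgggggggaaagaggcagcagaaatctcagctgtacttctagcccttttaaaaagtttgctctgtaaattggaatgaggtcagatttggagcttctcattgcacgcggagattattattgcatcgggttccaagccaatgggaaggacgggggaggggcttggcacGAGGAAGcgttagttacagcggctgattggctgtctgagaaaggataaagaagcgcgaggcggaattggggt
Serpine2 promoter: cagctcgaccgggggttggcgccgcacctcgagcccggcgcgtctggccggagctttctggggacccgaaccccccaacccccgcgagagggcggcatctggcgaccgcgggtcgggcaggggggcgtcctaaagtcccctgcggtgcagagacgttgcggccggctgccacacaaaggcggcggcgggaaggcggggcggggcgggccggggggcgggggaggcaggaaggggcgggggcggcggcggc
Cma1 promoter: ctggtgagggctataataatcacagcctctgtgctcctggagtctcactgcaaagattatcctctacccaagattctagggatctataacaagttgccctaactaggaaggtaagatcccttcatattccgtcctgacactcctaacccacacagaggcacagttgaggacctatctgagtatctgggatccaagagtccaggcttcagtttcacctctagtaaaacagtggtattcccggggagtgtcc
Fcnb promoter: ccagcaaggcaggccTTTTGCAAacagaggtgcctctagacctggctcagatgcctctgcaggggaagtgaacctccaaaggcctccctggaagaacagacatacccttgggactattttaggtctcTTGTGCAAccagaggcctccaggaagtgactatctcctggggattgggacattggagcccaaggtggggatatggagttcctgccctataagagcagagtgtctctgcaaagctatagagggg
The Sox4 window held 1 PU.1 match and the Fcnb window 2 C/EBP matches. The windows of Serpine2 and Cma1 held none of these letters, which says nothing of the factors. Of all 12468 such windows of tested genes, 11.05% held the RUNX motif, 11.04% the PU.1 motif, 7.83% the C/EBP motif, 6.23% the GATA motif, 5.98% the STAT motif and 4.65% the AP-1 motif. Windows were matched for 9785 of the 13123 genes (74.6%), under the 80% needed, so shares were not compared between classes.

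The 8 largest shared rises included 3 proteases of mast cells. Cma1, a mast cell chymase (chromosome 14, 55941451 to 55944675), had 269, 259 and 321 CPM in RUNX1-ETO_ONLY, 367, 359 and 351 CPM in CSF3R_ONLY, and 1.27, 1.33 and 2.76 CPM in EMPTY. Both alleles stood far above EMPTY, by log2 7.32 with the fusion (SE 0.21, adjusted p = 5.84e-13) and 7.66 with the receptor (SE 0.21, adjusted p = 5.26e-13). The difference between the alleles, -0.35 with an SE of 0.15, did not pass the threshold (adjusted p = 0.064), which does not show that they act alike. It passed without RUNX1-ETO_ONLY replicate 3 (adjusted p = 0.0348) and without EMPTY replicate 1 or 3 (0.0490 and 0.00413). The mast cell tryptase gene Tpsb2 had 424, 411 and 469 CPM in RUNX1-ETO_ONLY, 37.2, 38.1 and 38.1 CPM in CSF3R_ONLY, and 0.936 to 1.86 CPM in EMPTY. It was 11.5-fold higher with the fusion than with the receptor, though both lay above EMPTY. Mcpt2, another mast cell protease on chromosome 14, had 10.8, 9.86 and 12.6 CPM in RUNX1-ETO_ONLY, 363, 359 and 339.6 CPM in CSF3R_ONLY, and 0.165, 0.278 and 1.68 CPM in EMPTY. Here the receptor libraries were highest, 32.0-fold over the fusion libraries. Reads of these protease families, whose members are close paralogs, could be split between genes.

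Other shared rises were in receptors and regulators. F2r, the thrombin receptor PAR1, averaged 110.2 ± 12.5 CPM in RUNX1-ETO_ONLY, 28.5 ± 1.02 CPM in CSF3R_ONLY and 0.591 ± 0.231 CPM in EMPTY (SD, n = 3 each). Il1rl1, the receptor for interleukin-33 found on mast cells, averaged 393 ± 66.8 CPM in RUNX1-ETO_ONLY, 175 ± 5.20 CPM in CSF3R_ONLY and 9.57 ± 2.79 CPM in EMPTY. Both were higher with the fusion than with the receptor, as was Gfi1b, a repressor of erythroid and megakaryocyte cells, which was 27.3-fold above EMPTY with the fusion and 12.03-fold with the receptor. Ly6a, the stem cell antigen Sca-1, and Tarm1, an activating receptor of myeloid cells, had the reverse order, 2.19-fold and 4.85-fold lower in RUNX1-ETO_ONLY than in CSF3R_ONLY. Of the 1071 shared higher genes, 335 were higher in RUNX1-ETO_ONLY than in CSF3R_ONLY, 284 were lower and 452 (42.2%) were not called in the direct comparison.

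Shared falls were smaller in number. Fcnb, a ficolin of granulocyte precursors, had 3.01, 2.72 and 3.46 CPM in RUNX1-ETO_ONLY, 6.71 to 7.005 CPM in CSF3R_ONLY, and 40.9, 39.8 and 65.3 CPM in EMPTY. Both alleles lay below EMPTY and the fusion lay lowest, without overlap (log2 -3.99 with the fusion and -2.82 with the receptor). Tmem119, a membrane protein, averaged 2.43 ± 0.426 CPM in RUNX1-ETO_ONLY, 7.85 ± 0.477 CPM in CSF3R_ONLY and 34.0 ± 1.80 CPM in EMPTY (SD, n = 3 each). Nrgn, a calmodulin-binding protein, H2-Q4, a class I histocompatibility molecule, and Synj2, a phosphoinositide phosphatase, were 4.61-fold to 5.45-fold lower with the fusion and 2.82-fold to 3.30-fold lower with the receptor. Nav2, a large cytoskeletal protein, was 2.88-fold and 4.15-fold lower with the fusion and the receptor, and its difference between the alleles (log2 0.53) lost its call without any one of RUNX1-ETO_ONLY replicates 1 and 2 and CSF3R_ONLY replicate 3. Of the 583 shared lower genes, 376 (64.5%) were not called in the direct comparison, 61 were higher and 146 were lower in RUNX1-ETO_ONLY.

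Among fusion-specific genes, the primary granule protease gene Elane had 182, 182 and 235 CPM in RUNX1-ETO_ONLY, 1501, 1440.3 and 1393 CPM in CSF3R_ONLY, and 1509.5, 1517 and 2729 CPM in EMPTY. Fusion libraries were low and receptor libraries lay at or just under the EMPTY libraries, of which replicate 3 was highest. Against EMPTY, Elane was 9.60-fold lower with the fusion (adjusted p = 3.97e-09), and its change of log2 -0.41 with the receptor did not pass the threshold (adjusted p = 0.114). Thbs1, a matrix glycoprotein that binds platelets and activates TGF-beta, had 67.7, 66.3 and 61.1 CPM in RUNX1-ETO_ONLY, 1355, 1416 and 1414 CPM in CSF3R_ONLY, and 1962, 2057 and 1189.7 CPM in EMPTY. It was 21.4-fold lower with the fusion than with the receptor. The receptor libraries lay above replicate 3 of EMPTY, the library low in long transcripts, but below the other EMPTY libraries. The change of Thbs1 with the receptor against EMPTY, log2 -0.32, did not pass the threshold (adjusted p = 0.19), which does not show that it was unchanged. Slpi, an inhibitor of neutrophil elastase, was 21.2-fold lower with the fusion than with the receptor, and Aoah, which detoxifies bacterial lipopolysaccharide, 6.94-fold lower. Itgb5, an integrin subunit, and Ptpru, a receptor phosphatase, were 7.39-fold and 7.21-fold lower.

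Fusion-specific rises included Angpt1, a ligand of the TIE2 receptor made by haematopoietic stem cells, with 85.8, 71.4 and 73.5 CPM in RUNX1-ETO_ONLY, 12.7, 13.1 and 13.3 CPM in CSF3R_ONLY, and 17.7, 15.3 and 12.8 CPM in EMPTY. Fusion libraries stood above the rest, and receptor and EMPTY libraries overlapped. Gnptab, which tags lysosomal enzymes for sorting, averaged 531 ± 55.0 CPM in RUNX1-ETO_ONLY, 143 ± 2.82 CPM in CSF3R_ONLY and 123 ± 25.6 CPM in EMPTY (SD, n = 3 each). Ank, a pyrophosphate transporter, and Capg, an actin-capping protein, were 5.32-fold and 3.99-fold higher with the fusion than with the receptor.

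Receptor-specific rises included S100a9 and S100a8, which encode the subunits of calprotectin, the main calcium-binding protein of neutrophils. S100a9 had 98.0, 96.2 and 136 CPM in RUNX1-ETO_ONLY, 1273, 1238 and 1135 CPM in CSF3R_ONLY, and 83.3, 64.2 and 127 CPM in EMPTY. Receptor libraries were high, and fusion and EMPTY libraries overlapped. S100a8 had 74.4, 74.6 and 109 CPM in RUNX1-ETO_ONLY, 1049, 920.3 and 924 CPM in CSF3R_ONLY, and 91.7, 86.5 and 160.2 CPM in EMPTY. The difference between the alleles was log2 -3.47 for S100a9 (SE 0.23, adjusted p = 5.48e-09) and -3.49 for S100a8 (SE 0.24, adjusted p = 7.14e-09). Fgr, a SRC-family kinase of myeloid cells, averaged 8.81 ± 2.31 CPM in RUNX1-ETO_ONLY, 94.0 ± 6.62 CPM in CSF3R_ONLY and 8.02 ± 1.05 CPM in EMPTY. Vcan, a matrix proteoglycan made by monocytes, Trp53inp2, an autophagy protein, and Dmxl2, a regulator of proton pumps, were 7.51-fold to 10.7-fold lower in RUNX1-ETO_ONLY than in CSF3R_ONLY.

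Receptor-specific falls were smaller than the rises, with a median log2 change of -0.51 with the receptor against 0.71. Met, the receptor for hepatocyte growth factor, had 48.1, 43.7 and 31.1 CPM in RUNX1-ETO_ONLY, 8.87, 9.44 and 8.71 CPM in CSF3R_ONLY, and 42.5, 40.1 and 20.3 CPM in EMPTY. Receptor libraries were low, and fusion and EMPTY libraries overlapped, with the lowest of each in the libraries low in long transcripts. The amino acid transporter genes Slc43a1 and Slc1a4 were 3.32-fold and 2.80-fold lower with the receptor than in EMPTY. Ctnnd1, a catenin of cell junctions, Cdc14b, a cell cycle phosphatase, and Ablim1, an actin-binding protein, were 2.27-fold to 2.44-fold lower.

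**Figure D3:**
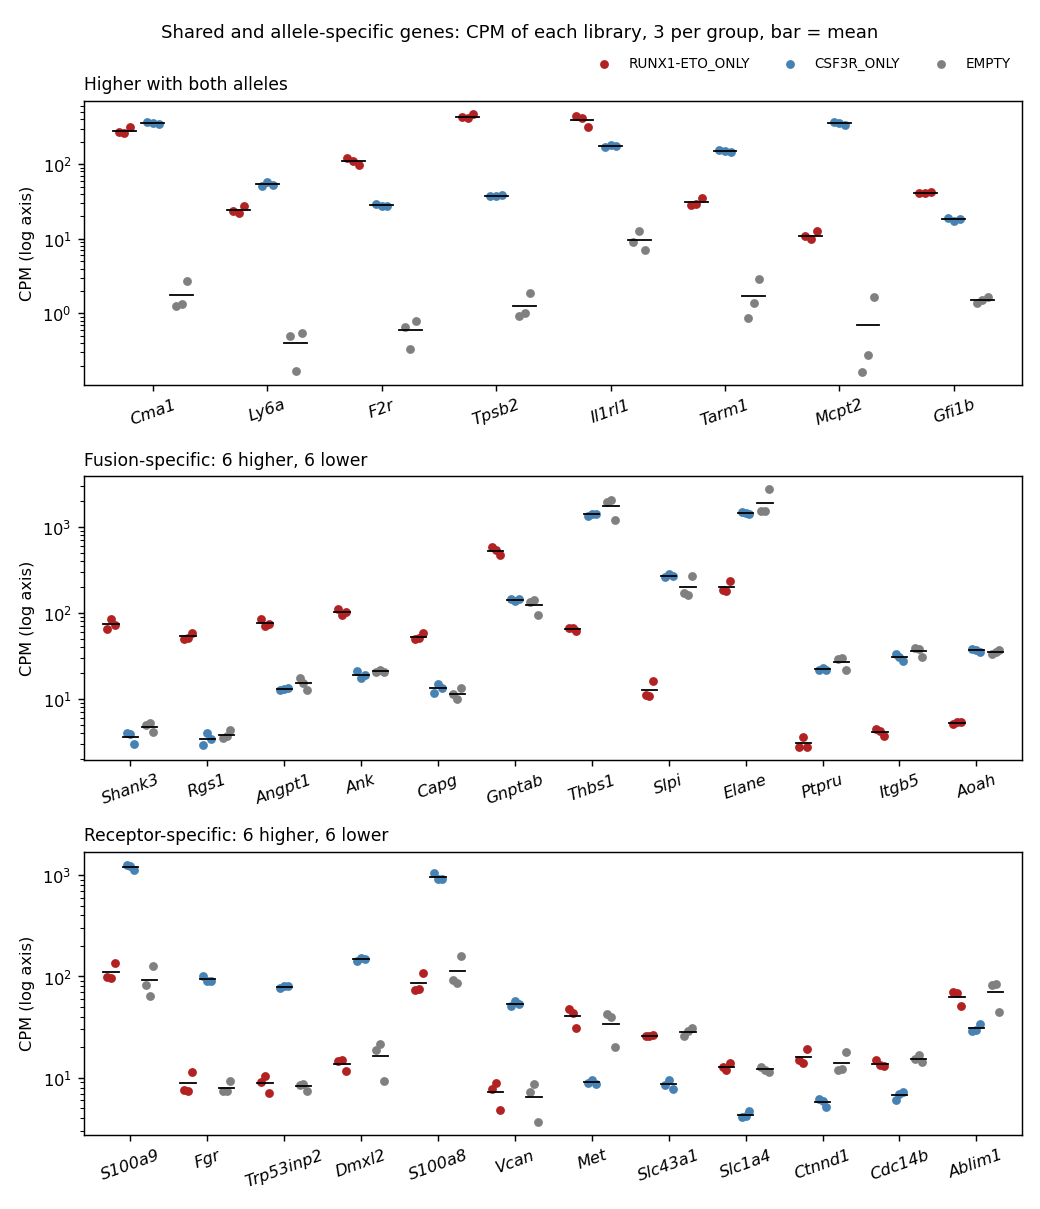
CPM on a log axis in each library of RUNX1-ETO_ONLY (red), CSF3R_ONLY (blue) and EMPTY (grey), 3 per group, with a bar at the mean, for 8 shared genes (top), 12 fusion-specific genes (middle) and 12 receptor-specific genes (bottom). Cma1 is at 283 and 359 CPM on average with the fusion and the receptor against 1.79 CPM in EMPTY, whereas S100a9 is high in CSF3R_ONLY only.

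Gene lists were described by how many tested members were called in the direct comparison, to be read against 22.3% higher and 23.8% lower and a median log2 difference of 0.01 over all genes. Counts of members by class are to be read against the class shares of all genes given above. In bulk samples fewer cells of a type and less RNA per cell cannot be told apart. Of 28 genes of later granules and mature neutrophils, 27 were lower in RUNX1-ETO_ONLY and 1, Chil3, was higher, with a median log2 difference of -3.43. By class, 10 of them were receptor-specific, 9 were opposed, 7 were shared higher, 1 was fusion-specific and 1 was shared lower. Ifitm6 had 0.153, 0.462 and 0.210 CPM in RUNX1-ETO_ONLY, 196, 215 and 195 CPM in CSF3R_ONLY, and 1.98, 1.89 and 2.82 CPM in EMPTY, so that receptor libraries were high and fusion libraries lowest. Mmp9, the gelatinase of tertiary granules, had 0.0510, 0.411 and 0.157 CPM in RUNX1-ETO_ONLY, 51.7 ± 1.72 CPM in CSF3R_ONLY (SD, n = 3), and 0.110, 0.222 and 0.120 CPM in EMPTY. Fusion and EMPTY libraries of Mmp9 overlapped near 0. The neutrophil surface antigen Ly6g averaged 0.0688 ± 0.0784 CPM in RUNX1-ETO_ONLY, 2.11 ± 0.128 CPM in CSF3R_ONLY and 0.115 ± 0.0625 CPM in EMPTY.

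Of 10 primary granule genes, 7 were lower in RUNX1-ETO_ONLY and none was higher (median log2 -0.49). Prss57, a granule serine protease, was 5.55-fold lower, Prtn3, the proteinase 3 gene, 2.83-fold lower and Ctsg, the cathepsin G gene, 1.45-fold lower. Prtn3 and Mpo were shared lower, and Prss57, Ctsg and Elane were among 4 fusion-specific falls. The rest were 3 shared higher genes, Serpinb1a among them, and 1 gene without any call. Not every member lower in RUNX1-ETO_ONLY than in CSF3R_ONLY thus lay below EMPTY. Serpinb1a, an inhibitor of these proteases, averaged 631 ± 49.3 CPM in RUNX1-ETO_ONLY and 698 ± 30.8 CPM in CSF3R_ONLY, a difference that did not pass the threshold (adjusted p = 0.218). Of the 7 subunits of the phagocyte NADPH oxidase, 6 were lower in RUNX1-ETO_ONLY (median log2 -1.34). Besides Cybb, the membrane subunit Cyba was 3.68-fold lower and the cytosolic subunits Ncf1 and Ncf4 were 4.34-fold and 2.53-fold lower.

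Transcription factors of granulocytes and monocytes were lower in 11 of 16 genes and higher in 3 (median log2 -0.72). Cebpe, which drives later granule genes, had 25.7, 26.5 and 32.1 CPM in RUNX1-ETO_ONLY, 279, 279 and 283 CPM in CSF3R_ONLY, and 175, 188 and 263 CPM in EMPTY. Fusion libraries were lowest and receptor libraries highest (log2 -3.32, SE 0.14, adjusted p = 2.81e-11). Cebpb, a C/EBP factor of emergency granulopoiesis, was 4.46-fold lower, Klf2 5.21-fold lower, and Spi1, the gene for PU.1, 2.93-fold lower. Irf8, the factor that favours monocytes and dendritic cells over granulocytes, went the other way, with 22.2, 24.1 and 24.7 CPM in RUNX1-ETO_ONLY, 1.05, 0.637 and 1.10 CPM in CSF3R_ONLY, and 9.75, 9.89 and 10.2 CPM in EMPTY. The groups of Irf8 did not overlap, and the difference was 25.3-fold (log2 4.66, SE 0.14, adjusted p = 6.68e-13). Of 19 monocyte and macrophage genes, 11 were nevertheless lower in RUNX1-ETO_ONLY and 4 were higher (median log2 -1.08). F13a1, coagulation factor XIII of monocytes, was 10.5-fold lower and Fcgr1, the high-affinity IgG receptor, 16.98-fold lower. The chemokine receptor gene Ccr2 averaged 85.6 ± 7.34 CPM in RUNX1-ETO_ONLY, 96.5 ± 1.54 CPM in CSF3R_ONLY and 170.2 ± 22.1 CPM in EMPTY, with no call between the alleles (adjusted p = 0.212).

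Stem and progenitor genes were higher in RUNX1-ETO_ONLY in 13 of 21 and lower in 3 (median log2 0.55). Against EMPTY, 13 of the 21 were higher and 5 lower with the fusion, beside 20.8% and 18.2% of all genes. With the receptor 6 were higher and 11 lower, beside 19.9% and 13.2% of all genes. By class 5 were opposed and higher with the fusion, 3 fusion-specific higher, 4 shared higher and 4 shared lower. Not every member higher in RUNX1-ETO_ONLY than in CSF3R_ONLY had thus risen above EMPTY. Cd34, the sialomucin of progenitors, had 1199, 1129 and 1141 CPM in RUNX1-ETO_ONLY, 162, 169 and 163 CPM in CSF3R_ONLY, and 248, 239 and 220.0 CPM in EMPTY. Fusion libraries were high and receptor libraries lowest, 7.02-fold apart (SE 0.074 on the log2 scale, adjusted p = 1.47e-13). The 3 exceptions were Prom1, Mycn and Ly6a. Prom1, which encodes the progenitor antigen CD133, had 1.33, 1.54 and 1.52 CPM in RUNX1-ETO_ONLY, 26.2, 29.7 and 32.8 CPM in CSF3R_ONLY, and 6.17, 5.06 and 4.80 CPM in EMPTY, and Mycn was 11.2-fold lower. Spink2 had 1.38, 1.13 and 1.05 CPM in RUNX1-ETO_ONLY and no counts in CSF3R_ONLY, at least 6.81-fold higher. Myb and Lmo2, which are needed for haematopoietic progenitors, were not called between the alleles (adjusted p = 0.533 and 0.222). Without EMPTY replicate 3 the adjusted p of Lmo2 was 0.0414.

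**Figure D4:**
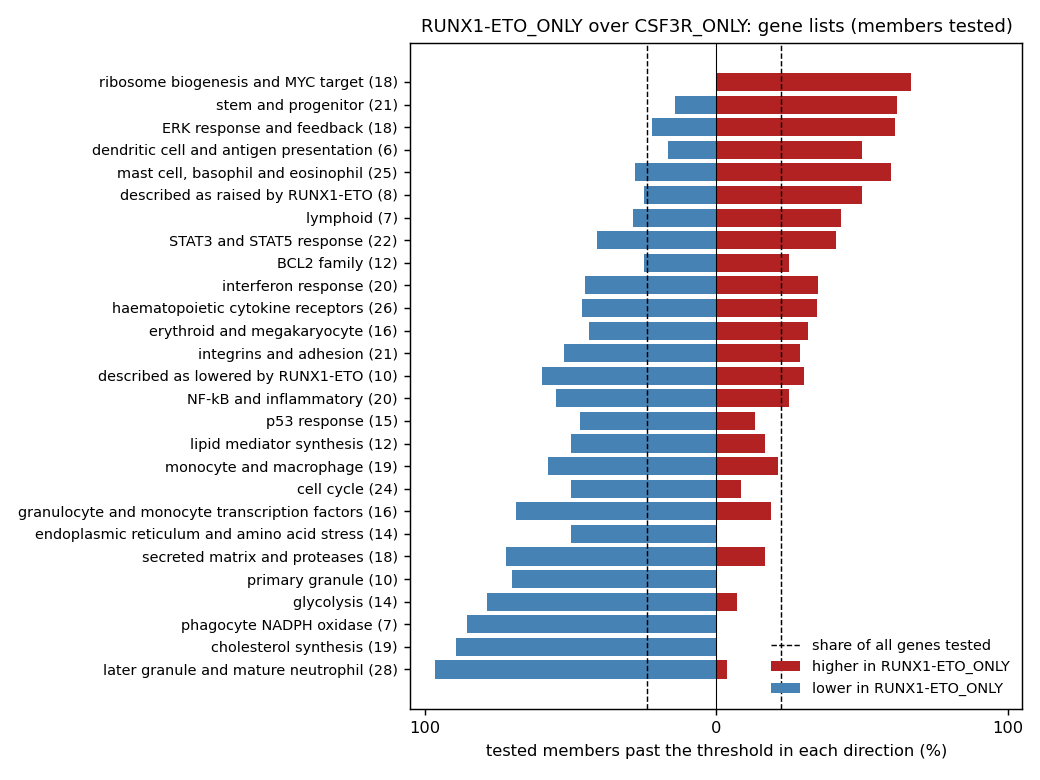
For each gene list with at least 5 tested members (number in brackets), the bars give the percentage of members called higher (right, red) or lower (left, blue) in RUNX1-ETO_ONLY than in CSF3R_ONLY, and dashed lines give the shares of all genes tested, 22.3% and 23.8%. Later granule and mature neutrophil genes stand at the bottom with 27 of 28 lower, and ribosome biogenesis genes at the top with 12 of 18 higher.

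Mast cell, basophil and eosinophil genes were mixed, 15 of 25 higher and 7 lower in RUNX1-ETO_ONLY (median log2 0.59), and 17 of the 25 were shared higher. The members with the largest differences were high with the receptor. Gzmb, granzyme B, had 0.153, 0.205 and 0 CPM in RUNX1-ETO_ONLY, 181, 184 and 177 CPM in CSF3R_ONLY, and 0, 0.0556 and 0.960 CPM in EMPTY. Receptor libraries alone were above 1 CPM (log2 -10.47, SE 0.41, adjusted p = 1.04e-11). Tph1, which makes serotonin, had 0.255, 0.617 and 0.629 CPM in RUNX1-ETO_ONLY and 27.7, 25.8 and 27.3 CPM in CSF3R_ONLY, and Fcer1a, the IgE-binding chain of the mast cell receptor, had 0.408, 0.411 and 0.524 CPM in RUNX1-ETO_ONLY, 19.1, 21.8 and 16.7 CPM in CSF3R_ONLY and no counts in EMPTY. Both were thus far higher with the receptor, 53.3-fold and 42.4-fold. Prg3, an eosinophil granule protein, was 145-fold lower with the fusion. Gata1, a factor of mast, eosinophil and erythroid cells, averaged 42.1 ± 2.97 CPM in RUNX1-ETO_ONLY, 34.7 ± 0.391 CPM in CSF3R_ONLY and 3.44 ± 1.08 CPM in EMPTY, with a difference between the alleles that did not pass the threshold (adjusted p = 0.0668). It passed without EMPTY replicate 1 or 3 (adjusted p = 0.0464 and 0.00399). Cpa3, the mast cell carboxypeptidase, had 9229, 9086 and 9992 CPM in RUNX1-ETO_ONLY, 1870.1, 1848 and 1794 CPM in CSF3R_ONLY, and 840.2, 805 and 1312 CPM in EMPTY. It made up most of the sum of the 5 mast cell markers Cpa3, Cma1, Fcer1a, Ms4a2 and Tpsb2, which was 9856 to 10876 CPM in RUNX1-ETO_ONLY, 2282 to 2378 CPM in CSF3R_ONLY and 814 to 1324 CPM in EMPTY.

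Cytokine receptors divided between the alleles, with 9 of 26 higher and 12 lower in RUNX1-ETO_ONLY (median log2 -0.07). Il10ra, the interleukin-10 receptor, averaged 24.6 ± 2.41 CPM in RUNX1-ETO_ONLY, 1.95 ± 0.640 CPM in CSF3R_ONLY and 2.23 ± 0.698 CPM in EMPTY. Il7r, the interleukin-7 receptor, had 0.867, 0.976 and 0.838 CPM in RUNX1-ETO_ONLY, 28.7, 27.4 and 29.4 CPM in CSF3R_ONLY, and 0.110, 0 and 0.120 CPM in EMPTY. Il10ra was thus high with the fusion and Il7r with the receptor. Il4ra, the interleukin-4 receptor and a STAT target, averaged 58.5 ± 1.76 CPM in RUNX1-ETO_ONLY, 503 ± 13.3 CPM in CSF3R_ONLY and 65.2 ± 9.35 CPM in EMPTY.

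Of 22 STAT3 and STAT5 response genes, 9 were higher and 9 were lower in RUNX1-ETO_ONLY, and 11 were shared higher. Lrg1, a secreted acute-phase glycoprotein, was 9.19-fold lower. The cyclin gene Ccnd2 had 70.1, 69.4 and 55.9 CPM in RUNX1-ETO_ONLY, 17.4, 17.7 and 17.9 CPM in CSF3R_ONLY, and 174, 159.7 and 147 CPM in EMPTY, below EMPTY with either allele and lowest with the receptor. Its relative Ccnd1 was 3.44-fold higher in RUNX1-ETO_ONLY than in CSF3R_ONLY, and was also below EMPTY with both. Stat3 itself averaged 344 ± 23.9 CPM in RUNX1-ETO_ONLY, 381 ± 6.36 CPM in CSF3R_ONLY and 224 ± 15.6 CPM in EMPTY, with no call between the alleles (adjusted p = 0.165). Among 18 genes of the ERK response and its feedback, 11 were higher in RUNX1-ETO_ONLY and 4 were lower (median log2 0.73). The phosphatases Dusp4 and Dusp5, which switch ERK off, were 4.58-fold and 3.58-fold higher, the ETS factor Etv5 was 3.59-fold higher, and Phlda1 had 12.3, 13.8 and 16.2 CPM in RUNX1-ETO_ONLY, 2.04, 1.505 and 2.02 CPM in CSF3R_ONLY, and 0.386, 0.833 and 1.26 CPM in EMPTY. Of 20 NF-kB and inflammatory genes, 15 were shared higher, and 11 were lower and 5 higher in RUNX1-ETO_ONLY than in CSF3R_ONLY. The chemokine gene Cxcl2 was 10.1-fold lower and the cytokine gene Tnf 4.45-fold lower.

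Genes of cholesterol synthesis and glycolysis were mostly lower with the fusion than with the receptor. Of 19 cholesterol synthesis genes, 17 were lower in RUNX1-ETO_ONLY and none was higher (median log2 -0.70), with 9 receptor-specific and 6 opposed. Mvd, an enzyme of the mevalonate pathway, had 22.9, 22.4 and 28.2 CPM in RUNX1-ETO_ONLY, 67.6, 70.9 and 70.8 CPM in CSF3R_ONLY, and 39.9, 40.6 and 47.3 CPM in EMPTY, with EMPTY between the alleles. Fdps, Sc5d and Pmvk, enzymes of the same pathway, were 3.66-fold, 2.19-fold and 2.09-fold lower. Of 14 glycolysis genes, 11 were lower and 1 was higher (median log2 -0.65), with Pkm, pyruvate kinase, 2.15-fold, Aldoa, aldolase, 2.06-fold, Gpi1, glucose phosphate isomerase, 1.92-fold and Eno1, enolase, 1.70-fold lower. Ribosome biogenesis and MYC target genes were higher in 12 of 18 and lower in none (median log2 0.43), and 10 of the 18 were receptor-specific falls. Polr1b, a subunit of RNA polymerase I, was 1.61-fold higher, Rcl1 1.59-fold, Wdr12 1.54-fold and Fbl, fibrillarin, 1.503-fold higher. Of 24 cell cycle genes, 12 were lower in RUNX1-ETO_ONLY and 2 were higher (median log2 -0.25). Rrm2, a subunit of ribonucleotide reductase, was 2.11-fold lower, Ccne1, cyclin E1, 1.79-fold lower and Aurka, a mitotic kinase, 1.69-fold lower, whereas Tyms, thymidylate synthase, was 1.89-fold higher. The proliferation marker Mki67, a long transcript, had 495, 731 and 399 CPM in RUNX1-ETO_ONLY and 979, 922 and 849 CPM in CSF3R_ONLY, and did not pass the threshold (adjusted p = 0.0629). It passed without RUNX1-ETO_ONLY replicate 2 (adjusted p = 0.0279) and without EMPTY replicate 2 or 3 (0.0480 and 0.0375).

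The libraries with both alleles are not among the groups compared above, but they entered the same fit, with its filter, scaling and estimate of spread. The order comparison, RUNX1-ETO_FIRST over CSF3R_FIRST, called 948 genes higher (7.22%) and 1459 lower (11.1%). Of the 2926 genes that were higher in RUNX1-ETO_ONLY than in CSF3R_ONLY, 478 (16.3%) were higher and 274 (9.36%) were lower when the fusion came first. Of the 3117 that were lower, 141 (4.52%) were higher and 792 (25.4%) were lower. Without CSF3R_FIRST replicate 3 the counts of 478 and 274 were 274 and 262, and without RUNX1-ETO_FIRST replicate 3 they were 271 and 240. They were 322 and 284 with no filter on low counts, and 427 and 300 with DESeq2's size factors. With library sizes alone they were 845 and 231, and with voom 805 and 396. Among genes higher with the fusion, those higher and those lower were thus nearer to equal in number without either library or without the filter. All genes leaned the other way in the main fit, with 948 higher and 1459 lower. Counts over all genes under the other settings are not given here, so any excess over all genes was not assessed there. Among opposed genes, 113 of the 315 that were higher with the fusion (35.9%) were higher in RUNX1-ETO_FIRST and 13 were lower, and 211 of the 512 that were lower with the fusion (41.2%) were lower in RUNX1-ETO_FIRST and 11 were higher. Without RUNX1-ETO_FIRST replicate 3 the counts of 141 and 113 were 86 and 73, and without CSF3R_FIRST replicate 3 they were 82 and 74. Of the 1071 shared higher genes, 442 (41.3%) were lower in RUNX1-ETO_FIRST and 46 (4.30%) were higher. Receptor-specific falls were higher in RUNX1-ETO_FIRST in 134 of 606 (22.1%) and lower in 11.

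By mean log2 CPM, RUNX1-ETO_FIRST lay nearer to RUNX1-ETO_ONLY than to CSF3R_ONLY in 74.9% of the opposed genes that were higher with the fusion and 73.6% of those that were lower. For CSF3R_FIRST these shares were 50.8% and 52.3%. The opposed classes did not stand alone, since RUNX1-ETO_FIRST lay nearer to RUNX1-ETO_ONLY in 74.2% of fusion-specific higher and 71.2% of fusion-specific lower genes. In the shared and receptor-specific classes its share was 56.1% to 56.8%. For CSF3R_FIRST the shares of the classes that were not opposed ran from 28.4% to 60.5%. Shared higher genes lay above both single alleles in 673 of 1071 in RUNX1-ETO_FIRST and 768 of 1071 in CSF3R_FIRST. Their median differences from EMPTY were 1.54 and 1.88 on the log2 scale, against 1.09 in RUNX1-ETO_ONLY and 0.99 in CSF3R_ONLY. Fusion-specific higher genes lay above both in 264 and 295 of 1051, and receptor-specific higher genes in 139 and 283 of 835. These positions are descriptions over genes, which are not independent replicates. No test was made of them, and no share over all genes was taken to set beside them.

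**Figure D5:**
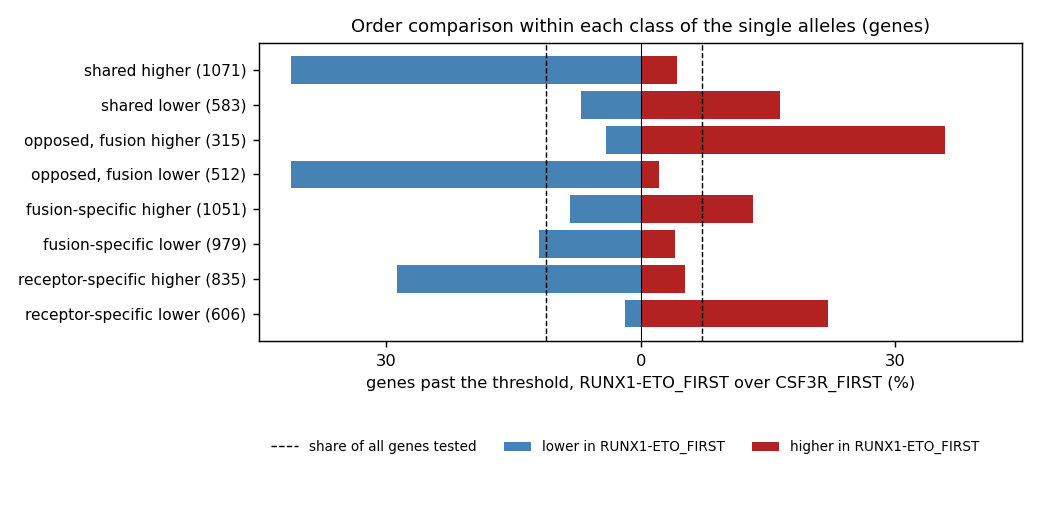
For each class of the single-allele comparisons (number of genes in brackets), the bars give the percentage called higher (right, red) or lower (left, blue) in RUNX1-ETO_FIRST than in CSF3R_FIRST, and dashed lines give the shares of all genes tested. Opposed genes that were higher with the fusion are called higher in 35.9%, and those that were lower with it are called lower in 41.2%.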

How the data were processed

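Strand-specific mRNA libraries of 15 samples were sequenced on a BGI DNBSEQ platform, per the labels' protocols. The authors deposited raw read counts per gene symbol in 1 table of 15 columns. The build mm10 and the programs Trimmomatic, STAR and DESeq2 are named in the submitters' processing notes, with no version. The way reads were counted, with its annotation and strand setting, was not given in the sources used here. Genes that overlap on opposite strands and close paralogs are therefore less certain. Of 52328 entries, the 1 naming no gene (0.0179% to 0.0305% of a library) was left out.

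Genes kept by edgeR 4.0.16's expression filter (13123) were scaled by TMM and fitted in all 15 libraries with 5 group means and robust quasi-likelihood F tests under R 4.3.3, which left 10 residual degrees of freedom. Tests are two-sided with Benjamini-Hochberg adjustment over all genes. Log2 CPM used a prior count of 2. Against a group without counts, folds used a floor of 3 counts in each library. The code was tested on simulated data. Alternatives were other scalings, no filter, DESeq2 1.42.0, limma 3.58.1 voom, other sets of libraries and a replicate block.

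Groups, members, gene lists and naming rules were chosen with earlier results of these data known. Named genes were the 12 largest direct changes each way and the 8 of each shared and opposed class by the smaller change. To these were added the 6 of each specific class whose other allele changed by under 0.5, and up to 6 members of a list. Genes ranked for the direct changes and classes averaged log2 CPM 3 or more. Libraries did not overlap between the alleles for direct changes, or between either allele and EMPTY for shared and opposed genes. For specific genes, libraries of the allele overlapped with neither EMPTY nor the other allele. Mpo and the other markers, and Chil3, fall outside this rule and were named after their values were seen. Of 29 lists with 476 genes, those that add little are shown in the figure of gene lists only. Some members are not reported here by name. Positions are from GENCODE M21 on mm10.

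Same-numbered libraries of RUNX1-ETO_ONLY and EMPTY deviated together (r = 0.284, 0.283 and 0.455 over 13123 genes), and those of RUNX1-ETO_ONLY and CSF3R_ONLY did not (r = -0.096, 0.039 and -0.030), nor did those of CSF3R_ONLY and EMPTY (r = -0.054, 0.030 and -0.044). The pairing of RUNX1-ETO_ONLY with EMPTY comes from these data, not from the labels. Replicates 1 and 2 of these 2 groups also went together across numbers (r = 0.106 and 0.138). Replicate 3 of either group went against replicates 1 and 2 of the other (r = -0.357 to -0.258), and both replicate 3 libraries were low in long transcripts.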

Additional observations from a re-analysis of the deposited data

How the results depend on the processing

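Depth was close to even between libraries, and values of genes under about 1 CPM rest on few counts. The counts of the 3 comparisons and 8 classes stayed within 1.5 times under DESeq2, its size factors, the 9 libraries alone, and without each single-allele or EMPTY library. With the replicate block 3009 genes were higher and 3228 lower between the alleles, 2809 higher and 2453 lower with the fusion against EMPTY, and among named genes only Cma1 and Mki67 gained a call (adjusted p = 0.0431 and 0.0171).

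Leaving out 1 library, for the double-allele groups a choice made after the data were seen, gave 2475 to 3504 genes higher and 2778 to 3518 lower between the alleles. In the order comparison it gave 271 to 397 and 82 to 122 genes higher among those higher and lower between the alleles, and 73 to 100 among opposed genes higher with the fusion. With library sizes alone there were 475 opposed genes higher with the fusion and 943 receptor-specific falls, and 845, 249 and 17 genes were higher in the order comparison among those higher, lower, and opposed and lower with the fusion. The last was 7 with no filter. Voom gave 884 shared lower and 535 and 780 opposed genes, with 805 and 225 of the direct genes higher in the order comparison. Without the 4 libraries low in long transcripts (replicate 3 of RUNX1-ETO_ONLY, EMPTY and CSF3R_FIRST, and replicate 1 of RUNX1-ETO_FIRST) the receptor lowered 2835 genes, shared lower were 1006, opposed 586 and 815, receptor-specific falls 970, and 1266 of the genes lower between the alleles were lower in the order comparison. A minimum of 2-fold left 443, 169, 71, 143, 466, 426, 399 and 124 genes, in the order of the classes, by its own construction. The causes of the others were not tested. Csf3r also lost its call between the alleles with library sizes alone (-0.11, adjusted p = 0.344), with no filter (0.0518) and in the 9 libraries alone (0.0624). In the 6 libraries alone only the direct comparison could be made, with 3458 genes higher and 3510 lower. Of the named genes not called between the alleles, Cma1 and Gata1 were called by DESeq2 (adjusted p = 0.0105 and 0.0159), by voom (1.50e-05 and 0.00358) and in the 6 libraries (0.00258 and 0.00551). Gata1 was also called with no filter (0.0438) and with library sizes alone (0.00499), Lmo2 with library sizes alone (0.0114) and in the 6 libraries (0.0420). Serpinb1a (0.00618), Stat3 (0.0488) and Mki67 (0.0242) were called by voom, and Mki67 in the 6 libraries (0.00873). Without the 4 libraries low in long transcripts Cma1, Serpinb1a, Gata1 and Mki67 were called. No named gene reversed. Between 65.5% and 79.5% of a class at least kept its class under each setting but the 2-fold minimum. The promoter motifs were in 2.90% to 7.07% of windows cut to 150 bases.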

Other observations

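Some adhesion, lipid mediator and interferon genes also differed between the alleles. Ncam1, a neural cell adhesion molecule also found on some leukaemias, had 1.12, 0.873 and 0.891 CPM in RUNX1-ETO_ONLY, 23.5, 22.7 and 25.6 CPM in CSF3R_ONLY, and 15.8 to 18.3 CPM in EMPTY, so that fusion libraries alone were low (log2 -4.63 between the alleles, SE 0.20, adjusted p = 3.18e-11 by edgeR's quasi-likelihood test). The leukocyte integrin genes Itgam and Itgb2 were 11.9-fold and 4.35-fold lower with the fusion, within a list in which 11 of 21 members were lower and 6 were higher. Of 12 lipid mediator genes 6 were lower and 2 were higher. Alox5, which starts leukotriene synthesis, had 27.9, 26.1 and 27.8 CPM in RUNX1-ETO_ONLY, 152, 164 and 159 CPM in CSF3R_ONLY, and 18.4, 19.3 and 19.9 CPM in EMPTY. Ltc4s, which acts after it to make leukotriene C4, had the opposite order, with 14.2, 14.0 and 17.2 CPM in RUNX1-ETO_ONLY, 2.22, 3.42 and 1.96 CPM in CSF3R_ONLY, and 0.771, 0.667 and 1.86 CPM in EMPTY. An earlier and a later step of the same pathway were thus highest with different alleles, Alox5 5.81-fold lower and Ltc4s 5.97-fold higher in RUNX1-ETO_ONLY. Of 20 interferon response genes 9 were lower and 7 were higher, with Zbp1, a nucleic acid sensor, 11.7-fold lower and Usp18, a brake on interferon signalling, 7.84-fold higher.

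Some genes were at or near 0 outside the fusion libraries. Dntt, the terminal transferase of lymphoid precursors, had 9.59, 10.99 and 9.75 CPM in RUNX1-ETO_ONLY, no counts in CSF3R_ONLY, and 0.165, 0.0556 and 0 CPM in EMPTY, at least 58.1-fold higher between the alleles against a floor of 3 counts per library. Adamts9, a secreted metalloprotease, had 24.7, 23.8 and 17.9 CPM in RUNX1-ETO_ONLY and no counts in CSF3R_ONLY or EMPTY, at least 127-fold higher. Cd74, the invariant chain of antigen presentation, had 1.68, 2.06 and 3.77 CPM in RUNX1-ETO_ONLY, 0.117, 0.174 and 0.115 CPM in CSF3R_ONLY, and 0.0551, 0.0556 and 0.120 CPM in EMPTY, while the class II gene H2-Aa had no counts in any of these libraries. Of 12 genes of the BCL2 family 3 were higher and 3 were lower, shares near those of all genes. The survival genes Bcl2 and Bcl2l1 were 2.06-fold and 1.69-fold higher in RUNX1-ETO_ONLY than in CSF3R_ONLY, the survival gene Mcl1 was 1.52-fold lower, and Bmf, which promotes cell death, was 2.01-fold lower.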
